A study of Arabidopsis thaliana with 21 samples.

Results

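The comparison set the gcn5 mutant of Arabidopsis thaliana against the ada2b-cada2a double mutant, in plants 30 days old. It used the 3 gcn5 and the 3 ada2b-cada2a libraries, 6 of the 21 RNA-sequencing libraries of the series, and the 23290 of 32548 genes whose mean over all 21 libraries was at least 1. The series holds 7 genotypes with 3 libraries each, and its title asks how conserved and plant-specific complexes that contain GCN5 act on transcription and development. The plants spent 12 days on Murashige and Skoog plates and then grew in soil, at 22 °C in days of 16 h light and 8 h dark, and the tissue label reads seedlings. The gcn5 plants carry the genotype label gcn5-/-, and the double mutant carries ada2b-c-/-ada2a-/-. Levels of the wild type, Col-0, are given beside some genes for orientation, without a test. The labels name neither the alleles nor the position of the mutations, and the meaning of the suffix in ada2b-c is not given there. Nor do they say whether the 3 libraries of a genotype are from different plants. P-values therefore reflect only a spread among libraries, pooled over the 21 of all 7 genotypes, which may be technical.

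GCN5 is a histone acetyltransferase, an enzyme that adds acetyl groups to the tails of histone H3. It works inside multi-protein complexes such as SAGA, and an ADA2 adaptor protein binds it there and raises its activity on nucleosomes. Arabidopsis has a pair of ADA2 adaptors, ADA2A and ADA2B, and plants without GCN5 or ADA2B are known to be dwarfed. The comparison therefore sets a mutant of the enzyme's gene beside a mutant of both adaptor genes.

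All values are the authors' deposited signal, a normalized measure that is not a read count, so the depth of sequencing is not known and counting intervals cannot be given. A change is the mean of log2(signal + 1) in gcn5 minus that in the double mutant, ± the SE of the limma fit, and a positive change means a higher level in gcn5. Adding 1 understates the change of genes with low signal. A gene was called at a Benjamini-Hochberg adjusted p under 0.05 over the 23290 genes. The samples are whole tissue, so fewer cells of a type and less RNA per cell cannot be told apart.

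The gcn5 libraries differed among themselves more than those of the double mutant. The median SD of log2 signal was 0.45 in gcn5 and 0.19 in the double mutant. Replicate 3 of gcn5 stood apart. Across genes its log2 signal correlated with that of gcn5 replicate 1 at r = 0.955, while gcn5 replicate 1 correlated with replicate 1 of the double mutant at r = 0.963. Column totals were 31898570 to 36187148 in gcn5 and 28607896 to 31666517 in the double mutant.

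Transcript length moved with the genotype. For every library a line was fitted to how far each gene lay from its own mean, against transcript length. Its slope, in log2 signal per doubling of length, was 0.20, -0.01 and -0.64 in gcn5 replicates 1 to 3. In the double mutant the slopes were 0.69, 0.94 and 0.74. The slopes of the groups did not overlap, and gcn5 replicate 3 was the lowest of the 6. A corrected fit therefore took out the trend of each library with length and GC content. Further fits used the length slope as a covariate or left out gcn5 replicate 3. Brackets after a list give its counts higher and lower in these fits. Brackets after a gene give its change in the corrected or covariate fit, or without 1 library, where that moved the fold by over 1.5 times (0.585 on the log2 scale) or altered the call, which then follows the value. A gene called in the same direction in the uncorrected fit and in these 3 alternatives is said to be called in all 4 fits. Where only the uncorrected fit calls a difference, the part of transcript length in it was not tested.

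**Figure D1:**
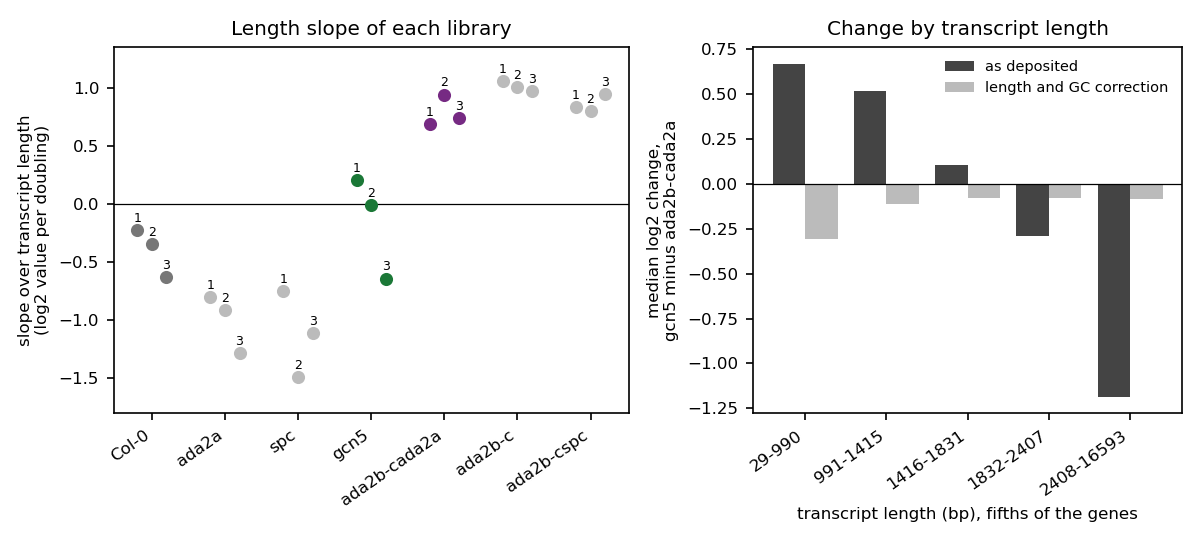
The left panel plots the slope of log2 signal per doubling of transcript length for each of the 21 libraries, with the replicate number above each point. The gcn5 libraries lie at 0.20, -0.01 and -0.64 and those of ada2b-cada2a between 0.69 and 0.94. The right panel plots the median log2 change, gcn5 minus ada2b-cada2a, in 5 equal bins of the genes by transcript length, which falls from 0.67 to -1.18 in the deposited values and lies between -0.31 and -0.08 after the correction.

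Many of the genes measured passed the test. Of 23290 genes, 10930 were called (46.9%), 5672 higher in gcn5 (24.4%) and 5258 lower (22.6%). The counts of each list below are to be read beside these shares. The 3 gcn5 values lay wholly above the 3 double-mutant values in 6871 of the 23290 genes and wholly below in 6696. Groups that did not overlap were therefore common. The called genes differed in length. The median transcript was 1233 bp long among those higher in gcn5 and 2567 bp among those lower, against 1620 bp over all genes tested. Of 5 equal bins by length, the shortest transcripts gave 1660 genes of 4664 called higher and 138 lower, and the longest gave 169 of 4655 higher and 2962 lower. When column totals were made equal the median change of all genes moved from 0.00 to -0.12, and 43.0% of the called genes were higher in gcn5 in place of 51.9%. After the correction 3787 genes were higher in gcn5 (16.3%) and 4101 lower (17.6%). Of the 10930 genes, 5395 were called in the same direction after the correction and 213 in the opposite one. With the length slope as a covariate 2674 were higher (11.5%) and 860 lower (3.69%), and without gcn5 replicate 3 the counts were 3646 (15.7%) and 3244 (13.9%). In all 4 fits 1082 genes were higher in gcn5 (4.65%) and 284 lower (1.22%).

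Col-0 means were set beside both mutants. Of the 1082 genes higher in gcn5 in all 4 fits, the Col-0 mean was above both mutants in 777 (71.8%), between them in 250 and below both in 55. Of the 284 lower in gcn5, the Col-0 mean was below both in 197 (69.4%), between them in 73 and above both in 14. Over all genes tested, the Col-0 mean was above both in 6541 of the 11767 with a higher mean in gcn5 (55.6%) and below both in 6526 of the 11059 with a lower one (59.0%). The mean length slope of Col-0, -0.40, also lay beyond that of gcn5, -0.15, away from that of the double mutant, 0.79. These Col-0 means are uncorrected, the counts carry no test, and the part of length in them was not tested.

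The genes that define the genotypes were read first. ADA2A (AT3G07740), the adaptor gene mutated in the double mutant and not in gcn5, had a signal of 196, 132 and 69.3 in gcn5 and 7.35, 1.49 and 1.60 in the double mutant. No library of one group reached the other, and the change was 5.02 ± 0.48 (adjusted p = 3.82e-07), called in all 4 fits. Col-0 stood at 66.9 ± 21.3. GCN5 (AT3G54610) itself had 290.1, 275 and 260.2 in gcn5 and 624, 433 and 527 in the double mutant. The gcn5 libraries were all lower, with Col-0 at 372 ± 51.0, and the change of -0.92 ± 0.21 (adjusted p = 0.00157) was not called in the corrected fit (-0.46, adjusted p = 0.0576). Nor did the covariate fit call it, at -0.60 (adjusted p = 0.151). ADA2B (AT4G16420), the other adaptor gene named in the double mutant, had 797, 572 and 252 in gcn5 and 369, 261 and 338 in the double mutant. These libraries overlapped, and the change of 0.60 ± 0.39 did not pass (adjusted p = 0.218). It passed without gcn5 replicate 3, at 1.08 (adjusted p = 0.0354), after the correction, at 0.92 (adjusted p = 0.0254), and with the covariate, at 2.33 (adjusted p = 3.33e-05). Col-0 stood at 494 ± 213. The level of a transcript does not show where in a gene its mutation lies.

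Of the 6 genes listed for the GCN5 module 1 was higher in gcn5 and 2 lower (2 and 2 corrected, 2 and 1 covariate, 2 and 2 without gcn5 replicate 3, 1 and 1 in all 4 fits). The higher gene was ADA2A and the lower ones were GCN5 and ADA3, so the genotypes' own mutated genes are among these counts. ADA3 had 551, 443 and 189 in gcn5 and 1482, 2255 and 1721 in the double mutant. Its change was -2.32 ± 0.31 (adjusted p = 1.97e-05; change -0.48 corrected, -1.36 covariate), called in all 4 fits. SGF29B, a subunit of the GCN5 module that reads methylated histone H3 in yeast and animals, had 288, 344 and 383 in gcn5 and 339, 289.6 and 354 in the double mutant, and the groups overlapped (adjusted p = 0.899; change -0.66 corrected called). Of 16 other SAGA subunits 2 were higher in gcn5 and 6 lower, with a median change of -0.55 (0 and 4 corrected, 0 and 0 covariate, 0 and 4 without gcn5 replicate 3, 0 and 0 in all 4 fits). The locus AT5G58575, annotated as a SAGA-associated factor, stood at 346, 371 and 198 in gcn5 and 711, 687 and 601 in the double mutant, a change of -1.17 ± 0.24 (adjusted p = 0.000831; change -0.25 covariate not called). UBP22, the ubiquitin protease of SAGA, had 1359.5, 1109.8 and 1323 in gcn5 and 1144, 1196 and 1222 in the double mutant and did not pass (adjusted p = 0.772). Of 11 other histone acetyltransferases, 9 were lower in gcn5 and 0 higher, with a median change of -2.28 (0 and 3 corrected, 0 and 2 covariate, 0 and 6 without gcn5 replicate 3, 0 and 1 in all 4 fits). Their transcripts are long, with a median of 4433 bp, and the median change was -0.43 after the correction. HAC1, a p300/CBP-type acetyltransferase, had 1026, 1131 and 234 in gcn5 and 3262, 7129.7 and 3794 in the double mutant. Its change was -2.78 ± 0.50 (adjusted p = 0.000252) in the deposited values and -0.43 after the correction (adjusted p = 0.116), and it was not called with the covariate (-0.76). Without gcn5 replicate 3 the change of HAC1 was -2.05 and was called. Its relative HAC2 had 29.3, 18.6 and 18.4 in gcn5 and 171, 361 and 173 in the double mutant, a change of -3.29 ± 0.47 (adjusted p = 3.13e-05; change -1.73 corrected), called in all 4 fits. Of 9 genes for enzymes that write or erase DNA methylation, 8 were lower in gcn5 with a median change of -1.68, or -0.26 after the correction (1 and 0 corrected, 0 and 2 covariate, 0 and 8 without gcn5 replicate 3, 0 and 0 in all 4 fits).

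Genes of the light-harvesting antenna, the chlorophyll-binding proteins that feed light energy to the photosystems, were higher in gcn5 without exception among those tested. Of 20 genes 19 passed the filter on low signal, and all 19 were higher, where 24.4% of all genes were. Their median change was 1.39, and that of all genes tested was 0.00. The summed signal of the antenna genes was 1610062, 1893114 and 1944282 in gcn5 and 747067, 920552 and 675029 in the double mutant, with 5732078 ± 256826 (SD, n = 3) in Col-0. The other fits called fewer or as many (15 and 0 corrected, 18 and 0 covariate, 19 and 0 without gcn5 replicate 3, 15 and 0 in all 4 fits). Their transcripts are short, with a median of 1295 bp.

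LHCB2.1 (AT2G05100), 1 of the genes for the mobile antenna of photosystem II, led the group with 26419, 31749.8 and 27209 in gcn5 and 2249, 2783 and 2278 in the double mutant. The groups were far apart, the double mutant having less signal in every library, and the change was 3.55 ± 0.15 (adjusted p = 1.16e-11). Col-0 stood above both at 226991 ± 29331. LHCB2.3 had 2525, 2639.6 and 2157 in gcn5 and 333, 279 and 279 in the double mutant, a change of 3.03 ± 0.16, and LHCB2.2 changed by 2.67 ± 0.17 (change 2.05 corrected). LHCB3, which joins the trimers of the same antenna, had 66124, 75430.3 and 85323 in gcn5 and 15984, 20670.0 and 14505 in the double mutant, a change of 2.16 ± 0.18 (adjusted p = 8.49e-08). The LHCB1 and LHCB2 genes are near-identical copies within each family, so how the authors' counting split reads among copies is uncertain.

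The 300 bases before the annotated starts of LHCB2.1 (chr2:1824481-1824780, minus strand) and LHCB2.3 (chr3:10255606-10255905, plus strand) are shown because these copies led the group. Sequences are 5′ to 3′ on the gene's strand, from the RefSeq TAIR10.1 genome, and capitals mark the G-box CACGTG and the I-box GATAAG, letters known from light-regulated promoters, searched on both strands.
LHCB2.1: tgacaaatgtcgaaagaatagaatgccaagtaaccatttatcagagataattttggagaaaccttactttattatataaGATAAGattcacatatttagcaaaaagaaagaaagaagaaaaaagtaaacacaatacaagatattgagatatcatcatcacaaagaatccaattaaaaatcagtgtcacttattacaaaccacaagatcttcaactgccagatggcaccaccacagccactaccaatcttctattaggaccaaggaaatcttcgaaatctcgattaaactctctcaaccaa
LHCB2.3: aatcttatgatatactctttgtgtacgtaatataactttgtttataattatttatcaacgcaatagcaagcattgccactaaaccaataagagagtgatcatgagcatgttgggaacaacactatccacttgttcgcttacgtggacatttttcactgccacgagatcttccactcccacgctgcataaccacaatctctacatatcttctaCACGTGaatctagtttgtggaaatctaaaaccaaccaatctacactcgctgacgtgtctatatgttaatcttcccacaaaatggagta
LHCB2.1 held 1 I-box, beginning 221 bases before the start, and LHCB2.3 held 1 G-box, at 88 bases. Among the 19 antenna promoters 4 held a G-box (21.1%) and 4 an I-box (21.1%), against 7.59% and 14.7% of the 23289 promoters searched. Larger shares held the G-box in the clock (6 of 13, 46.2%), JAZ (4 of 12, 33.3%) and iron (5 of 15, 33.3%) lists, among others. The I-box stood in a larger share of the dark-inducible list (9 of 13, 69.2%), among others. Most lists held less of each. A match is a description of letters and not a binding site. In all, 6 motifs were searched in every list with a tested gene, and only some of these results are described. In 109 of the 23289 promoters letters of different motifs searched overlapped, and in none (0) of those printed.

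Of 30 subunits of the photosystems and of electron transport, 26 were higher in gcn5 and 0 lower, with a median change of 1.09 (19 and 0 corrected, 22 and 0 covariate, 26 and 0 without gcn5 replicate 3, 13 and 0 in all 4 fits). PSAH2, a subunit of photosystem I at the docking site of the mobile antenna, had 15631, 18224 and 24589.7 in gcn5 and 5895, 5822 and 5604 in the double mutant, a change of 1.73 ± 0.19 (adjusted p = 2.77e-06; change 0.96 corrected, 1.06 covariate). The groups did not overlap there, nor for PSAO, another photosystem I subunit, at 44997, 48313 and 55856 in gcn5 and 15198, 17164 and 16119 in the double mutant. PSAO changed by 1.62 ± 0.17 (change 0.91 corrected). ATPC1, a subunit of the chloroplast ATP synthase, and PETC, the Rieske protein of the cytochrome complex, did not pass, with changes of 0.12 ± 0.23 (adjusted p = 0.695; change 1.13 covariate called) and 0.28 ± 0.19 (adjusted p = 0.223; change -0.31 corrected, 0.96 covariate called).

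**Figure D2:**
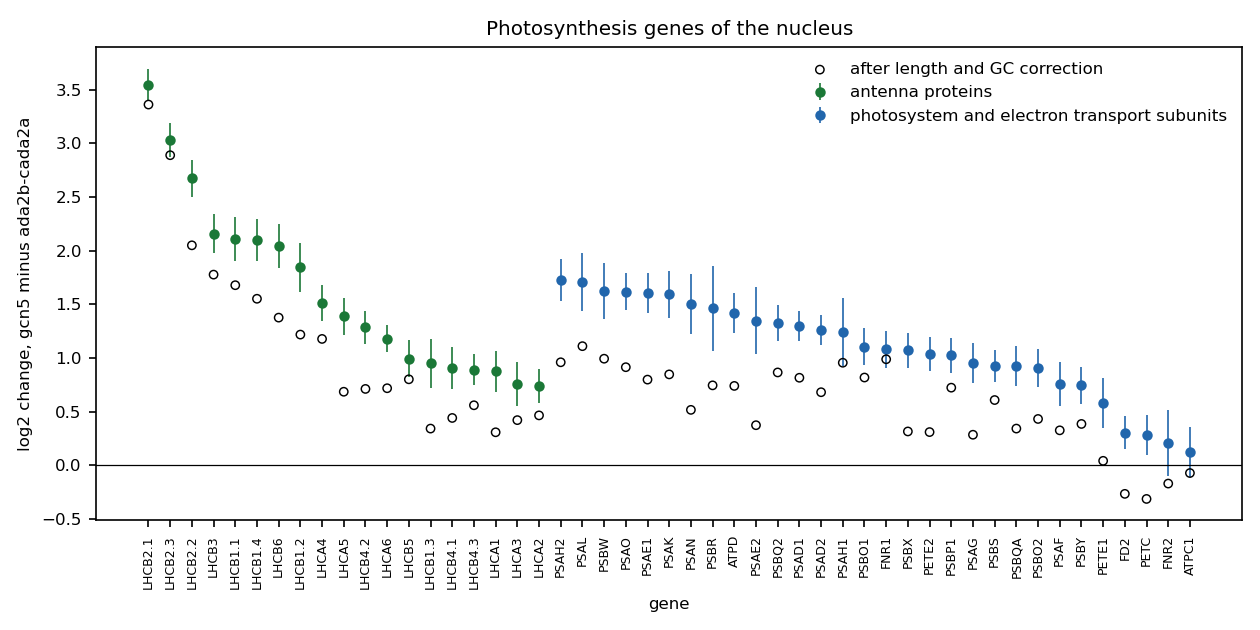
Filled points give the log2 change, gcn5 minus ada2b-cada2a, of 19 antenna genes and 30 photosystem and electron transport genes, with bars of 1 SE, and open points the change after the length and GC correction. The points run from 3.55 for LHCB2.1 to 0.12 for ATPC1, and most open points lie lower but above 0.

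Of 17 Rubisco and Calvin cycle genes 7 were higher in gcn5 and 1 lower, with a median change of 0.17, or 0.81 with the covariate (7 and 0 corrected, 10 and 0 covariate, 6 and 0 without gcn5 replicate 3, 5 and 0 in all 4 fits). FBA1, a chloroplast aldolase, had 12835, 17217 and 19585 in gcn5 and 5748, 6895 and 5979 in the double mutant, higher in every gcn5 library (adjusted p = 1.86e-05). RBCS1A, the main small subunit of Rubisco, had 198870.0, 246366 and 152830.0 in gcn5 and 186014, 178011 and 158876 in the double mutant. Those groups overlapped (change 0.17 ± 0.27, adjusted p = 0.639; change 0.84 covariate). Of 16 chlorophyll synthesis genes 5 were higher and 1 lower (6 and 0 corrected, 9 and 0 covariate, 4 and 0 without gcn5 replicate 3, 3 and 0 in all 4 fits). In the uncorrected fit the share higher lay near the 24.4% of all genes, and the share lower was under their 22.6%. With the covariate 11.5% of all genes were higher, and in all 4 fits 4.65%. The median change of the chlorophyll synthesis genes was 0.13, or 0.88 with the covariate, and 3 were higher without gcn5 replicate 1. CHLI1, a subunit of magnesium chelatase, had 12768, 12389 and 16272 in gcn5 and 6554, 6723 and 7052 in the double mutant, a change of 1.02 ± 0.16 (adjusted p = 9.29e-05). GUN5, the largest subunit of the same enzyme, had 6999, 5323 and 1158 in gcn5 and 8782, 15418 and 9649.8 in the double mutant, a change of -1.64 ± 0.53 (adjusted p = 0.0155) that turned to 0.10 after the correction (adjusted p = 0.805) and to 0.76 with the covariate (adjusted p = 0.203). It was not called without gcn5 replicate 3 (-0.84) or without replicate 2 of the double mutant. Of 9 regulators of greening, 4 were higher and 0 lower (5 and 1 corrected, 4 and 1 covariate, 4 and 0 without gcn5 replicate 3, 4 and 0 in all 4 fits). GLK1 and GLK2, which activate photosynthesis genes, changed by 0.91 ± 0.16 and 1.45 ± 0.22 (change 0.49 covariate). GLK2 had 2275, 2991 and 4395 in gcn5 and 1136, 1081 and 1202 in the double mutant, and the groups did not overlap.

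Dark-inducible genes, which plants switch on when sugar runs low, were mostly lower in gcn5. Of 13 such genes, 8 were lower and 1 higher, with a median change of -0.98 (3 and 6 corrected, 2 and 4 covariate, 1 and 7 without gcn5 replicate 3, 0 and 4 in all 4 fits). ASN1 (AT3G47340), an asparagine synthetase, had 2615, 2830.5 and 1707 in gcn5 and 13562, 14009 and 14081 in the double mutant. The double mutant was higher in every library, the change was -2.57 ± 0.20 (adjusted p = 3.81e-08; change -1.92 corrected, -1.86 covariate), and Col-0 stood at 1401 ± 190.1. BCAT2, which breaks down branched-chain amino acids, had 1314, 1352 and 1360.4 in gcn5 and 4421, 3765 and 4584 in the double mutant, a change of -1.66 ± 0.18 (adjusted p = 1.81e-06). DIN1, a senescence marker of the chloroplast, had 2082, 2132 and 2466 in gcn5 and 7223, 4622 and 7049.8 in the double mutant, a change of -1.48 ± 0.18 (adjusted p = 5.49e-06). In Col-0 DIN1 stood at 4958 ± 927. DIN11, an oxidoreductase of the dark response, went the other way, at 0.95 ± 0.27 (adjusted p = 0.00719; change 0.30 corrected not called, 0.43 covariate not called).

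The promoters of ASN1 (chr3:17441432-17441731, minus strand) and DIN1 (chr4:16944578-16944877, plus strand) are shown because the I-box letters GATAAG recur in the list, with the I-box in capitals on either strand.
ASN1: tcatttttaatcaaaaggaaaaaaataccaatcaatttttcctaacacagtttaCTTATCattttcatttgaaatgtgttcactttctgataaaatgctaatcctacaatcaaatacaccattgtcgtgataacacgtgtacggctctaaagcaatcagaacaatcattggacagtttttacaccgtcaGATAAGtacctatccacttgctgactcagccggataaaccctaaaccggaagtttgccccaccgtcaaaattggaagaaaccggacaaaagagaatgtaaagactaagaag
DIN1: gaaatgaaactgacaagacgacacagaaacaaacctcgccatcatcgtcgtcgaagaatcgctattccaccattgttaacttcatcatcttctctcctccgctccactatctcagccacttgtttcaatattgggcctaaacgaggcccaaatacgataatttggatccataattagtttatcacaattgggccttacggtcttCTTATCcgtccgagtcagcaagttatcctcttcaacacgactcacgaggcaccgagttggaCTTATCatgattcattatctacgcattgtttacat
ASN1 held 2 matches, beginning 246 and 111 bases before the start, and DIN1 held 2, at 96 and 35 bases. The letters stood in 9 of the 13 dark-inducible promoters (69.2%) against 14.7% of all promoters. They also stood in 6 of 12 JAZ promoters and 6 of 12 of the jasmonate and ethylene outputs (50% each). Those lists, described below, had more genes higher in gcn5 than lower. Other motifs are not marked, and ASN1 also holds the G-box letters CACGTG.

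Jasmonate is a lipid hormone of wounding and defence. Of 13 synthesis genes 7 were higher in gcn5 and 2 lower (8 and 0 corrected, 7 and 0 covariate, 6 and 1 without gcn5 replicate 3, 5 and 0 in all 4 fits). Without replicate 1 of the double mutant 4 were higher. AOS, allene oxide synthase, had 7364, 9155 and 12479 in gcn5 and 1644, 1634 and 1699 in the double mutant, a change of 2.51 ± 0.19 (adjusted p = 3.17e-08; change 1.79 covariate). AOC2, the cyclase that acts next, changed by 2.70 ± 0.23 (change 1.76 covariate), and LOX2, the lipoxygenase that acts before them, had 7780.3, 8667 and 3583 in gcn5 and 5209, 9096 and 5473 in the double mutant and did not pass (adjusted p = 0.951; change 1.14 corrected called, 0.90 covariate). Of 12 JAZ repressors, which the hormone both induces and destroys, 7 were higher in gcn5 and 2 lower (5 and 2 corrected, 4 and 0 covariate, 7 and 1 without gcn5 replicate 3, 4 and 0 in all 4 fits). JAZ10 had 493, 643 and 775 in gcn5 and 161, 158 and 184 in the double mutant, a change of 1.90 ± 0.21 (adjusted p = 2.89e-06; change 1.14 covariate). JAZ1 had 942, 819 and 389 in gcn5 and 1673, 1719 and 1595 in the double mutant, a change of -1.31 ± 0.30 (adjusted p = 0.00155; change -0.45 covariate not called) in the opposite direction.

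Of 13 outputs of jasmonate and ethylene, 12 were tested, and 9 were higher in gcn5 and 0 lower, with a median change of 1.95 (8 and 1 corrected, 8 and 0 covariate, 8 and 0 without gcn5 replicate 3, 7 and 0 in all 4 fits). The plant defensins, small antifungal proteins, led them. PDF1.2A (AT5G44420) had 13245, 19312 and 31666 in gcn5 and 1227, 1094 and 1211 in the double mutant, a change of 4.09 ± 0.36 (adjusted p = 1.52e-07; change 2.67 corrected, 2.47 covariate). Every gcn5 library lay far above the double mutant, and Col-0 stood at 548 ± 106. PDF1.2B (AT2G26020) had 2889.6, 3877 and 6689 in gcn5 and 165, 161 and 158 in the double mutant, a change of 4.70 ± 0.38 (change 3.16 corrected, 3.01 covariate), and PDF1.2C and PDF1.3 changed by 4.54 ± 0.42 (change 3.104 corrected, 2.71 covariate) and 3.43 ± 0.39 (change 1.93 corrected, 1.74 covariate). These 4 genes are close copies, and reads may have been split among them. VSP1 and VSP2, storage proteins on the wound branch of jasmonate signalling, did not pass, at -0.32 ± 0.27 (adjusted p = 0.354; change 0.78 covariate called) and -0.53 ± 0.29 (adjusted p = 0.143; change -0.86 corrected called, 0.54 covariate, -0.90 without gcn5 replicate 1 called).

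The promoters of PDF1.2A (chr5:17907639-17907938, minus strand) and PDF1.2B (chr2:11088823-11089122, plus strand) are shown for the GCC box GCCGCC, letters that ethylene response factors are known to bind, in capitals.
PDF1.2A: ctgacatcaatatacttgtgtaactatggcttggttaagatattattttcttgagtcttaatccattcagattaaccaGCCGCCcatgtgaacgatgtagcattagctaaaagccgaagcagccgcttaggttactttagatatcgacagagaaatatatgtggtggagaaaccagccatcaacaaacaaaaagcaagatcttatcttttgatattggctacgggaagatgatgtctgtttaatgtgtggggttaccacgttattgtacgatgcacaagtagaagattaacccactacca
PDF1.2B: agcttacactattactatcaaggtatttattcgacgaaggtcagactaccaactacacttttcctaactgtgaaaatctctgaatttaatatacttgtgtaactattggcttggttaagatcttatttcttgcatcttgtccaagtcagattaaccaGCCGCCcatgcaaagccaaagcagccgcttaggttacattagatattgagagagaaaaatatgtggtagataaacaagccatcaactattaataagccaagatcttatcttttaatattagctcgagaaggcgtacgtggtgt
PDF1.2A held 1 match, beginning 222 bases before the start, and PDF1.2B held 1, at 143 bases. Of the 12 output promoters 3 held the letters (25%) against 2.31% of all promoters. The heat shock list held them in as many, 3 of 12 (25%). Only the GCC box is marked here, and both sequences also hold the I-box letters, unmarked, as CTTATC.

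Of 21 genes of salicylic acid defence, 4 were higher in gcn5 and 6 lower, near the shares of all genes, with a median change of -0.22 (3 and 8 corrected, 5 and 2 covariate, 3 and 5 without gcn5 replicate 3, 2 and 2 in all 4 fits). The other 11 did not pass. The pathogenesis-related outputs PR1 and PR5 were higher. PR1 had 9923, 13747 and 20508 in gcn5 and 2677, 2637 and 2529 in the double mutant, a change of 2.43 ± 0.29 (adjusted p = 4.97e-06; change 1.13 corrected, 1.19 covariate), and PR5 had 14328, 14858 and 12827 in gcn5 and 4385, 3744 and 4167 in the double mutant, a change of 1.77 ± 0.15 (adjusted p = 6.89e-08; change 1.099 corrected). PR2, a glucanase induced with them, had 26095, 24650.2 and 14439 in gcn5 and 19474, 21746 and 19491 in the double mutant, and its groups overlapped (adjusted p = 0.863; change 0.96 covariate called). EDS1, which relays signals from immune receptors, had 1745, 1443 and 1041 in gcn5 and 3784, 5474 and 4276 in the double mutant, a change of -1.69 ± 0.25 (adjusted p = 4.22e-05; change -1.096 corrected). CBP60G, a transcription factor that drives salicylic acid synthesis, had 1933, 1902 and 1082 in gcn5 and 3869.8, 4202 and 4166 in the double mutant, a change of -1.36 ± 0.18 (adjusted p = 1.71e-05; change -0.74 covariate). ICS1, the synthesis enzyme itself, changed by -1.06 ± 0.20 (adjusted p = 0.000444; change -0.33 covariate not called). Of 17 genes of cell-surface immunity 1 was higher in gcn5 and 6 lower (5 and 4 corrected, 4 and 0 covariate, 1 and 3 without gcn5 replicate 3, 1 and 0 in all 4 fits). FLS2, the receptor for bacterial flagellin, changed by -1.38 ± 0.26 (adjusted p = 0.000372) in the deposited values and by 0.29 after the correction (adjusted p = 0.182), and it was not called with the covariate (-0.68). RBOHD, the oxidase of the immune burst, had 4477, 4282 and 2501 in gcn5 and 1729.9, 2131 and 1957 in the double mutant, a change of 0.91 ± 0.27 (adjusted p = 0.00918; change 2.29 corrected, 2.07 covariate), called in all 4 fits but not with equal column totals.

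Of 14 cold-response genes, 12 were higher and 0 lower, with a median change of 1.75 (9 and 0 corrected, 6 and 0 covariate, 10 and 0 without gcn5 replicate 3, 4 and 0 in all 4 fits). CBF2, a transcription factor at the head of the cold response, had 56.3, 50.9 and 114 in gcn5 and 0.551, 1.48 and 8.89 in the double mutant. The double mutant was close to 0, the change was 4.38 ± 0.59 (adjusted p = 1.84e-05; change 3.002 covariate, 5.15 without double mutant replicate 3), and Col-0 stood above both at 1613 ± 188. CBF1 changed by 2.65 ± 0.38 (adjusted p = 3.23e-05; change 1.43 covariate). KIN2, a cold-induced protein, had 7863, 8865 and 17709.8 in gcn5 and 2298, 2843 and 3057 in the double mutant, a change of 1.98 ± 0.39 (adjusted p = 0.000593; change 0.76 corrected, 0.16 covariate not called). COR47 and RD29A did not pass, with changes of 0.12 ± 0.24 (adjusted p = 0.725; change 1.17 covariate called) and 0.10 ± 0.31 (adjusted p = 0.83; change 0.88 corrected called, 1.05 covariate). The C-repeat core CCGAC, which CBF proteins are known to bind, stood in 5 of 14 promoters of the list (35.7%) and in 14.4% of all promoters. Floral repressors (4 of 10, 40%) and Aux/IAA genes (5 of 13, 38.5%) held it in larger shares, though most lists held less.

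The type-A ARR genes, which cytokinin induces and which damp its signal, were higher in gcn5 in 6 of 10 cases and lower in 0, with a median change of 1.78 and 0.78 after the correction (6 and 0 corrected, 3 and 0 covariate, 6 and 0 without gcn5 replicate 3, 3 and 0 in all 4 fits). ARR6 had 604, 811 and 1157 in gcn5 and 136, 140.4 and 149 in the double mutant, a change of 2.54 ± 0.26 (adjusted p = 1.09e-06; change 1.66 corrected, 1.52 covariate). ARR5 had 628, 974 and 1412 in gcn5 and 161, 157 and 206 in the double mutant, a change of 2.45 ± 0.34 (adjusted p = 2.89e-05; change 1.502 corrected, 0.91 covariate). Both sets of libraries were apart. Of 14 cytokinin metabolism genes 2 were higher and 1 lower, a smaller share than that of all genes (3 and 2 corrected, 2 and 0 covariate, 2 and 1 without gcn5 replicate 3, 2 and 0 in all 4 fits). The cytokinin oxidases CKX4 and CKX1 went opposite ways. CKX4 had 626, 527 and 664 in gcn5 and 127, 71.5 and 97.3 in the double mutant, a change of 2.64 ± 0.30 (adjusted p = 3.72e-06). CKX1 had 31.3, 17.6 and 2.35 in gcn5 and 81.2, 115 and 80.1 in the double mutant, a change of -2.86 ± 0.56 (adjusted p = 0.000532; change -1.35 covariate not called, -3.54 without gcn5 replicate 1, -1.90 without gcn5 replicate 3). The GH3 enzymes, which tie auxin to amino acids, were lower in gcn5 in 4 of 6 cases and higher in 0, with a median change of -1.65 (0 and 4 corrected, 0 and 2 covariate, 0 and 4 without gcn5 replicate 3, 0 and 2 in all 4 fits). GH3.3 had 318, 354 and 144 in gcn5 and 1346, 1970.5 and 1432 in the double mutant, a change of -2.62 ± 0.43 (adjusted p = 0.000117; change -1.75 covariate). GH3.5 changed by -2.23 ± 0.28 (adjusted p = 7.95e-06; change -1.13 covariate), and both were called in all 4 fits. The Aux/IAA repressors, another family that auxin induces, gave 4 higher and 1 lower of 13 (2 and 6 corrected, 1 and 3 covariate, 2 and 0 without gcn5 replicate 3, 1 and 0 in all 4 fits). IAA7 had 2837, 3304 and 3913 in gcn5 and 1601, 1559 and 1551 in the double mutant, a change of 1.08 ± 0.14 (adjusted p = 1.05e-05). Of 20 auxin synthesis and transport genes 9 were higher and 1 lower (9 and 1 corrected, 4 and 0 covariate, 5 and 1 without gcn5 replicate 3, 4 and 0 in all 4 fits). The auxin importers LAX1 and LAX3 changed by 1.28 ± 0.17 and 1.41 ± 0.21, and LAX2, of the same family, did not pass at -0.15 ± 0.27 (adjusted p = 0.673; change 0.65 covariate). The lower gene was YUC3, an enzyme of auxin synthesis, with 3.37, 7.86 and 1.15 in gcn5 and 25.8, 70.7 and 49.5 in the double mutant, a change of -3.39 ± 0.58 (adjusted p = 0.000159; change -2.58 covariate not called). PP2CA and ABI2, phosphatases that restrain abscisic acid signalling, changed by 1.93 ± 0.23 (change 0.94 covariate) and 1.18 ± 0.18, and ABI5, a transcription factor of that hormone, by -1.78 ± 0.36 (adjusted p = 0.000689). In the whole list of abscisic acid genes 3 of 13 were higher and 2 lower, near the shares of all genes (3 and 2 corrected, 3 and 2 covariate, 2 and 1 without gcn5 replicate 3, 2 and 1 in all 4 fits).

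**Figure D3:**
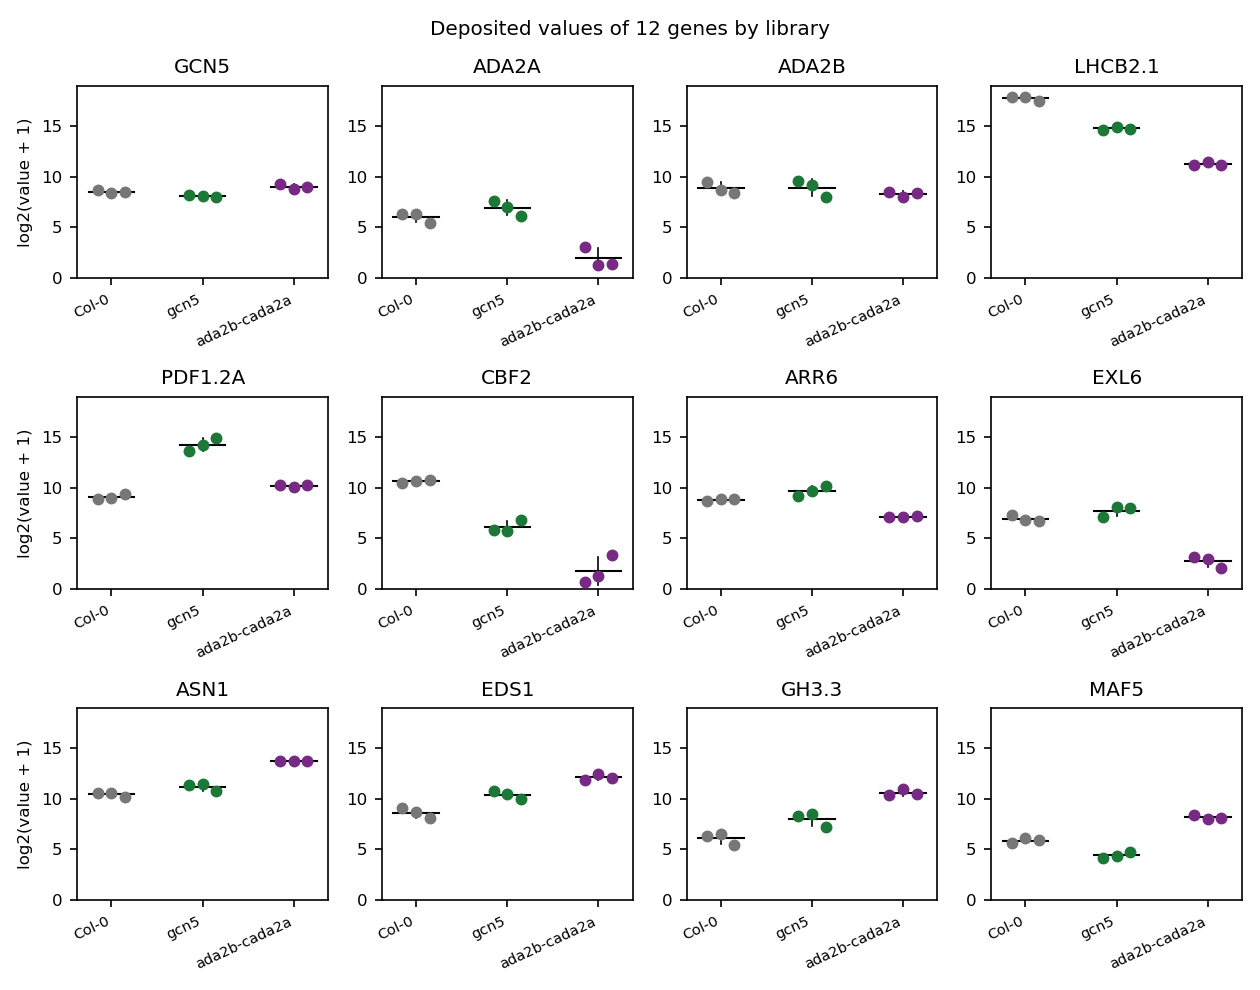
Each panel plots the deposited signal of 1 gene as log2(value + 1) in the 3 Col-0, 3 gcn5 and 3 ada2b-cada2a libraries, with the mean as a bar and 1 SD as a line. LHCB2.1 and CBF2 fall in steps from Col-0 through gcn5 to the double mutant, ASN1, EDS1 and GH3.3 are higher in that order, and PDF1.2A is highest in gcn5.

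Of 10 floral repressors 4 were higher in gcn5 and 3 lower (4 and 3 corrected, 0 and 2 covariate, 3 and 3 without gcn5 replicate 3, 0 and 2 in all 4 fits). The largest rise in the list was 2.05. Its summed signal was 24860 ± 8092 (SD, n = 3) in gcn5 and 13165 ± 567 in the double mutant. The repressors described next were lower or not called in the uncorrected fit, and the higher ones are not named here. MAF5, a relative of the floral repressor FLC, had 16.1, 19.6 and 25.8 in gcn5 and 331, 264 and 281 in the double mutant. The change was -3.79 ± 0.31 (adjusted p = 6.63e-08; change -4.86 corrected), and Col-0, at 57.9 ± 10.4, lay between the groups. Its neighbour MAF4 changed by -1.54 ± 0.44 (adjusted p = 0.00746) and was not called without replicate 1 of the double mutant. MAF1 and MAF3 did not pass, at 0.35 ± 0.20 (adjusted p = 0.154; change 1.11 corrected called, -0.40 covariate) and -0.28 ± 0.23 (adjusted p = 0.324; change -1.12 corrected called). CO, which activates flowering in long days, had 7.76, 8.83 and 2.26 in gcn5 and 43.2, 54.0 and 48.6 in the double mutant, a change of -2.92 ± 0.50 (adjusted p = 0.000168; change -2.12 corrected). FT, the mobile flowering signal it activates, lay between 9.05 and 40.8 in gcn5 and between 25.2 and 36.0 in the double mutant, and the groups overlapped (adjusted p = 0.417; change -1.503 corrected called). Of 13 flowering promoters tested 6 were higher in gcn5 and 1 lower (3 and 2 corrected, 1 and 1 covariate, 5 and 1 without gcn5 replicate 3, 1 and 1 in all 4 fits). SOC1, which joins flowering signals in the shoot tip, had 3455, 4638 and 6759.7 in gcn5 and 1828, 1551 and 1561 in the double mutant, a change of 1.54 ± 0.29 (adjusted p = 0.000359; change 0.66 corrected, 0.28 covariate not called). SPL9, a factor of the adult phase, changed by 1.53 ± 0.22 and was called in all 4 fits.

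Of 14 floral organ genes tested 9 were higher and 0 lower, with a median change of 1.08 (4 and 0 corrected, 2 and 0 covariate, 7 and 0 without gcn5 replicate 3, 1 and 0 in all 4 fits). AG, which specifies stamens and carpels, had 49.7, 42.1 and 48.6 in gcn5 and 14.1, 8.85 and 10.2 in the double mutant, a change of 2.01 ± 0.40 (adjusted p = 0.000636; change 1.42 corrected, 1.79 covariate not called). Of 20 tested genes of the tapetum and pollen wall, the anther layer that feeds pollen and the coat it lays down, 13 were higher and 2 lower, with a median change of 3.02 (12 and 2 corrected, 12 and 0 covariate, 12 and 1 without gcn5 replicate 3, 12 and 0 in all 4 fits). EXL6, an extracellular lipase of the pollen coat, had 136, 284 and 257 in gcn5 and 7.90, 6.56 and 3.28 in the double mutant. Every gcn5 library exceeded the double mutant, the change was 5.03 ± 0.45 (adjusted p = 1.70e-07; change 3.89 corrected), and Col-0 stood at 122 ± 30.3. GRP19, a glycine-rich pollen coat protein, had 588, 1144 and 1085 in gcn5 and 60.6, 17.5 and 23.7 in the double mutant, a change of 4.89 ± 0.40 (adjusted p = 7.11e-08; change 4.11 corrected, 3.83 covariate). Its neighbour GRP16 had 17.9, 19.6 and 22.6 in gcn5 and was listed at 0 in all 3 double-mutant libraries. TKPR1, which makes precursors of the outer pollen wall, went the other way with 153, 114 and 101 in gcn5 and 292, 309 and 315 in the double mutant, a change of -1.33 ± 0.26 (adjusted p = 0.000483; change -0.81 covariate not called). Markers of mature pollen did not pass in any of 4 cases (0 higher and 0 lower, with 1 higher in the covariate fit), with summed signals of 12.0 to 22.6 in gcn5 and 11.0 to 16.6 in the double mutant. The part of organ makeup in these differences was not tested.

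Of 3 tested root markers 1 was lower in gcn5 and 0 higher (0 and 1 corrected, 0 and 0 covariate, 0 and 1 without gcn5 replicate 3, 0 and 0 in all 4 fits). PYK10, a glucosidase abundant in roots, had 2956, 2275 and 1340.1 in gcn5 and 8245, 11128 and 9235 in the double mutant, a change of -2.18 ± 0.33 (adjusted p = 6.63e-05; change -0.70 covariate not called), and Col-0 stood at 699 ± 246. CASP1 and COBL9, of the root endodermis and root hairs, were at or under 1.76 in every library of both groups. The 4 markers listed, with the 1 not tested, summed to 1340 to 2958 in gcn5 and 8246 to 11128 in the double mutant, nearly all of it PYK10. Of 5 secondary wall genes of stems 3 were lower in gcn5 and 1 higher (1 and 1 corrected, 0 and 3 covariate, 0 and 2 without gcn5 replicate 3, 0 and 1 in all 4 fits), with sums of 336 to 375 in gcn5 and 701 to 971 in the double mutant. Their median transcript is 3347 bp long. The median change was -0.89, or 0.06 after the correction, and without replicate 2 of the double mutant 1 was lower. CESA8, a cellulose synthase of the secondary wall, had 83.3, 53.8 and 47.6 in gcn5 and 223, 289.9 and 242 in the double mutant, a change of -2.05 ± 0.32 (adjusted p = 8.30e-05; change -0.76 corrected, -1.25 covariate). Of 4 seed storage genes 0 passed the filter on low signal. The part of root or stem tissue in the other results was not tested.

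Of 14 genes of aliphatic glucosinolate synthesis, the methionine-derived defence compounds of the cabbage family, 10 were higher in gcn5 and 0 lower, with a median change of 1.02 (9 and 0 corrected, 11 and 0 covariate, 9 and 0 without gcn5 replicate 3, 9 and 0 in all 4 fits). With equal column totals 6 were higher. MYB29, a regulator of the pathway, had 117, 90.0 and 85.4 in gcn5 and 11.6, 13.1 and 9.30 in the double mutant, a change of 2.99 ± 0.41 (adjusted p = 2.12e-05; change 4.22 covariate). BCAT4, which commits methionine to it, had 7198, 7315 and 7315 in gcn5 and 1444, 1541 and 1480.2 in the double mutant, a change of 2.29 ± 0.17 (adjusted p = 2.25e-08). Both genes were higher in every gcn5 library. SOT18, a late sulfotransferase, did not pass (0.19 ± 0.25, adjusted p = 0.575; change 1.13 covariate called). Of 14 genes of indole glucosinolates and camalexin 6 were higher and 3 lower (6 and 3 corrected, 6 and 0 covariate, 6 and 1 without gcn5 replicate 3, 4 and 0 in all 4 fits). GGP1, CYP81F2 and CYP79B3 were among those higher in all 4 fits. CYP81F2, a cytochrome P450, had 618, 736 and 509 in gcn5 and 272, 307 and 267 in the double mutant. Its change was 1.12 ± 0.20 (adjusted p = 0.000196). PAD3, the last enzyme of camalexin synthesis, went the other way. It had 2213, 2222 and 1332 in gcn5 and 4464, 5306 and 4660.2 in the double mutant. The change of PAD3 was -1.36 ± 0.26 (adjusted p = 0.000414; change -0.83 covariate not called).

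Of 9 wax genes 6 were higher in gcn5 and 0 lower (6 and 0 corrected, 8 and 0 covariate, 7 and 0 without gcn5 replicate 3, 4 and 0 in all 4 fits), and 3 were higher with equal column totals. MAH1, a hydroxylase that makes stem wax alcohols and ketones, had 679, 417 and 474 in gcn5 and 41.1, 50.9 and 27.1 in the double mutant, a change of 3.70 ± 0.41 (adjusted p = 2.07e-06; change 4.34 covariate). WSD1 and CER4, which make wax esters and primary alcohols, changed by 2.74 ± 0.47 and 2.31 ± 0.29. Col-0 was above both mutants for MAH1, at 3402 ± 243. Of 11 expansins, proteins that loosen the cell wall, 8 were higher and 0 lower, with a median change of 1.07 (7 and 0 corrected, 4 and 0 covariate, 7 and 0 without gcn5 replicate 3, 4 and 0 in all 4 fits). EXLA1 had 2527, 3139 and 4368 in gcn5 and 425, 455 and 387 in the double mutant, a change of 2.95 ± 0.24 (adjusted p = 6.05e-08; change 2.07 covariate), and EXPA1 did not pass (0.34 ± 0.18, adjusted p = 0.114; change -0.32 covariate, 0.52 without gcn5 replicate 1 called). Of 16 anthocyanin and flavonol genes tested 6 were higher and 0 lower (1 and 0 corrected, 3 and 0 covariate, 4 and 0 without gcn5 replicate 3, 1 and 0 in all 4 fits), with 3 higher without replicate 3 of the double mutant.

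**Figure D4:**
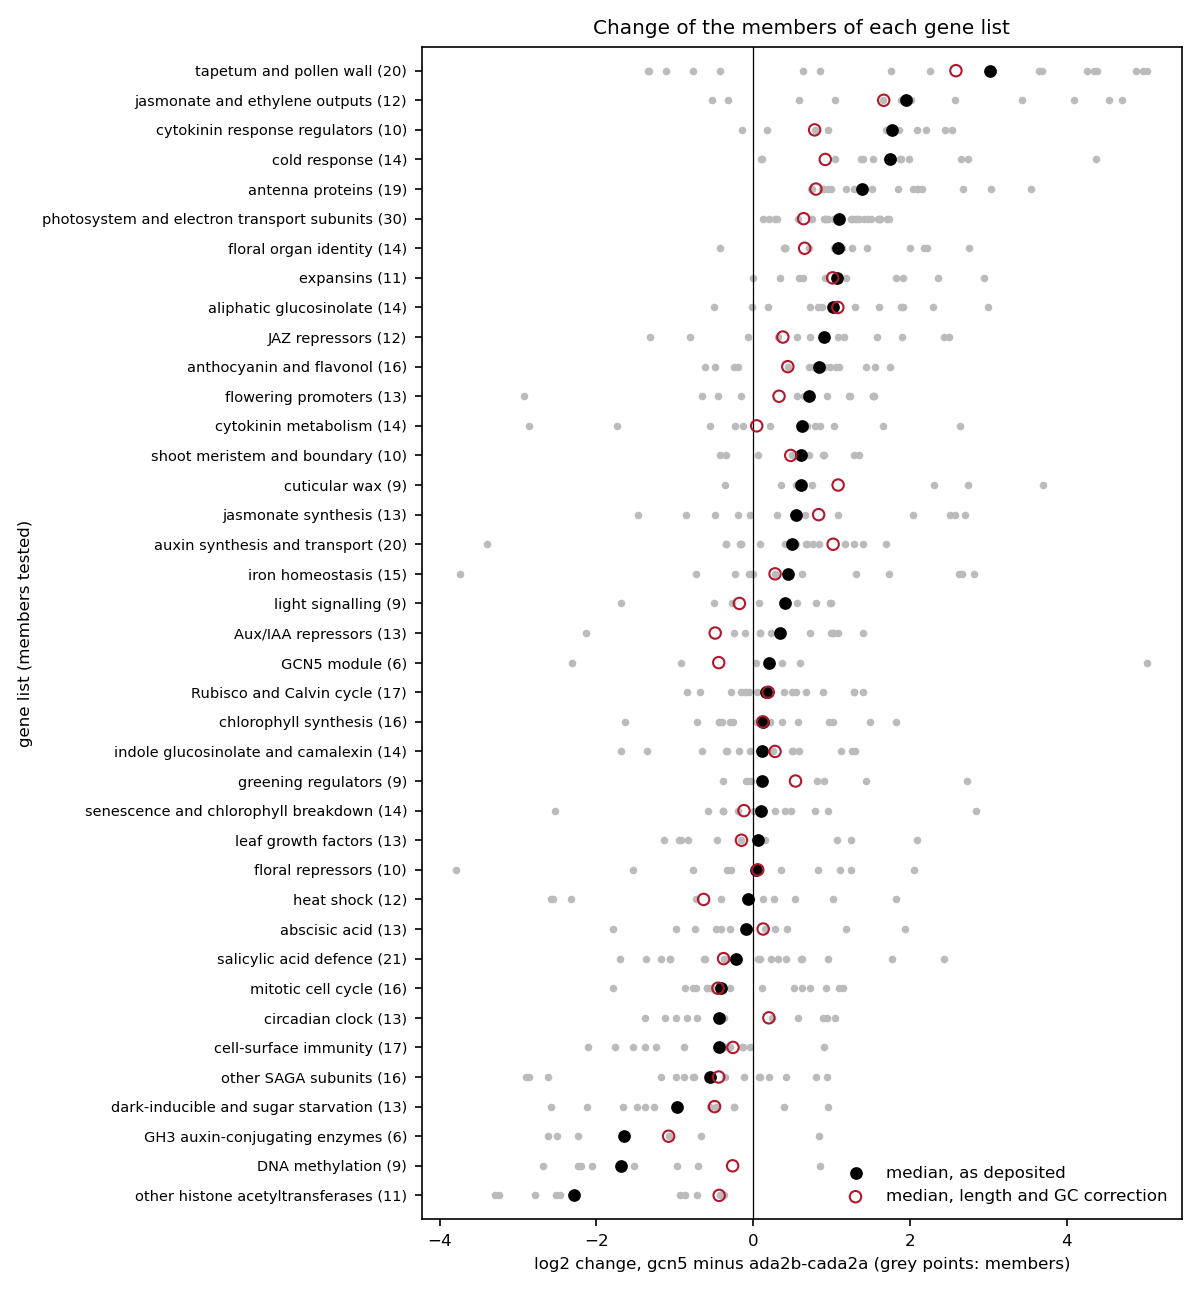
Grey points give the log2 change, gcn5 minus ada2b-cada2a, of each member of 39 gene lists with at least 6 members tested, filled points the median of the deposited values and open points the median after the length and GC correction. The medians run from 3.02 for tapetum and pollen wall genes to -2.28 for other histone acetyltransferases, whose median is -0.43 after the correction.

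Among the 10 largest differences in each direction were genes close to silent in one of the mutants. XTH3, an enzyme of the xyloglucan family that remodels cell walls, had 192, 237 and 194 in gcn5 and 0, 1.62 and 3.54 in the double mutant, a change of 6.51 ± 0.51 (adjusted p = 3.81e-08; change 5.57 corrected, 5.91 without double mutant replicate 1). SWEET10, a sugar transporter, had 51.8, 88.1 and 122 in gcn5 and 0, 0 and 8.09 in the double mutant, a change of 5.32 ± 0.78 (adjusted p = 4.42e-05; change 4.49 corrected, 4.01 covariate, 6.38 without double mutant replicate 3). LCR66, a small cysteine-rich protein, had 50.9, 105 and 177 in gcn5 and 1.67, 0 and 0 in the double mutant. The rule for these largest differences took only genes whose groups did not overlap and that were called alike before and after the correction. Separation and a corrected call were thus given in advance. Col-0 stood at 219 ± 93.2 for XTH3 and at 199 ± 31.3 for SWEET10. GGPS2, a geranylgeranyl diphosphate synthase, had 36.8, 48.0 and 28.2 in gcn5 and was listed at 0 in the 3 libraries of the double mutant, as was LBD20, with 18.5, 42.1 and 39.9. In the other direction the locus AT1G64795 had 0, 0 and 1.06 in gcn5 and 154, 78.0 and 124 in the double mutant, a change of -6.50 ± 0.43 (adjusted p = 6.40e-09; change -7.10 corrected, -8.36 covariate), with Col-0 at 236 ± 115. BGLU22, a glucosidase, had 3.52, 0 and 2.16 in gcn5 and 48.5, 73.7 and 60.6 in the double mutant, a change of -4.65 ± 0.74 (adjusted p = 9.08e-05; change -3.17 covariate not called, -4.01 without gcn5 replicate 2). SPI, a large protein of cell shape, had 763, 766 and 166 in gcn5 and 4364, 9796 and 4813 in the double mutant, a change of -3.68 ± 0.49 (adjusted p = 1.83e-05; change -1.25 corrected, -2.03 covariate, -2.95 without gcn5 replicate 3), called in all 4 fits. With 0.1 added in place of 1 the changes of these genes near 0 were 7.92 for XTH3, 7.57 for SWEET10, -8.98 for AT1G64795 and -6.01 for BGLU22, and that of CBF2 was 5.04. The strand setting of the counting is not given, so reads from overlapping or antisense genes cannot be told apart from these.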

How the data were processed

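RNA sequencing of 7 genotypes, 3 libraries each, gave 1 deposited table, of which the gcn5 and ada2b-cada2a libraries were compared. The authors' values are a normalized signal per gene, not whole numbers, so no count model was used. Values listed at or within rounding of 0 were taken as 0. Per the labels' protocols, TRIzol RNA was read in 150-bp pairs by a NovaSeq 6000. The submitters' processing notes name bcl2fastq, HISAT2, edgeR and TAIR10. Versions, the counting program, the normalization and the strand setting are not stated in these sources, and depth is unknown.

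Testing used genes whose mean over 21 libraries reached 1, as log2(signal + 1) in limma 3.58.1 (R 4.3.3), with 1 mean per genotype over all 7 and a variance trend, so the groups share 1 estimate of spread. P-values were adjusted by Benjamini-Hochberg over 23290 genes. The length and GC correction subtracted from each library its smooth trend (splines, 5 degrees of freedom each) with length and GC content of the RefSeq TAIR10.1 transcripts, as fitted in 18559 genes. The fit was run on simulated data without a length trend, with one, and with one corrected. Limits on its errors were set only for the first and last of these. The uncorrected fit under a length trend, the setting of the reported calls, was therefore not required to pass. Its share of unchanged genes called is not given here.

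The comparison, 43 gene lists (546 of 564 members tested) and the rule for named genes were chosen with earlier results of these data known. The rule names GCN5, ADA2A, ADA2B, up to 4 called members of a list, 2 called against it and 2 not called. It also names the 10 largest non-overlapping changes each way with a mean of at least 30 in the higher group. Those genes had to be called, and called in the same direction after the length and GC correction. Not every gene the rule names is described. Alternatives were other filters, pseudocount, scaling, variance, block, length adjustment, change of at least 1, and each library left out. Counting calls in all 4 fits, and the correction without gcn5 replicate 3, were added after seeing the data. Plots used matplotlib 3.10.9 in Python 3.11.15.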

Additional observations from a re-analysis of the deposited data

How the results depend on the processing

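The fit as reported called 10930 genes. The count was 7206 with only the groups compared in the fit (3228 lower in gcn5), 7083 with a change of at least 1 (3096 higher), 3534 with the length slope as a covariate (2674 higher, 860 lower), 4740 with the length and GC correction without gcn5 replicate 3 (2723 higher, 2017 lower) and 1366 in all 4 fits (1082 higher, 284 lower). Leaving out 1 library at a time gave 6890 to 11942 genes, 3646 to 6076 higher and 3244 to 5866 lower, with the low ends without gcn5 replicate 3. Without a filter 10033 were called, with a mean of at least 30 10705, with a pseudocount of 0.1 10787, with weights per genotype 10531 and with equal column totals 9894. Same-numbered libraries of the groups deviated from their means with r = -0.14, 0.12 and 0.098, so the numbers were not taken as pairs. The fit with the replicate block called 11561 genes, 5948 higher and 5613 lower, and 8561 together with the correction. GUN5 changed sign, to 0.10 with the correction (0.10 with the block too), 0.76 with the covariate and 0.47 with the correction without gcn5 replicate 3. FLS2 changed sign, to 0.29 with the correction (0.29 with the block too) and 0.24 without gcn5 replicate 3 as well. The cause was not tested. With 3 libraries per group and depth unknown, small changes of low genes were not detectable here.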

Other observations

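Of 15 iron genes 6 were higher in gcn5 and 1 lower (5 and 1 corrected, 2 and 1 covariate, 3 and 1 without gcn5 replicate 3, 2 and 0 in all 4 fits). BHLH38, BHLH39 and BHLH100, transcription factors that iron shortage induces, changed by 2.66 ± 0.37, 2.81 ± 0.73 (change 1.86 corrected, 1.503 covariate not called) and 2.63 ± 0.45 (change 1.74 corrected). BHLH38 had 161, 171 and 257 in gcn5 and 21.4, 41.1 and 29.0 in the double mutant, and its groups did not overlap (adjusted p = 2.69e-05; change 1.53 corrected). ABCG37, which exports iron-chelating coumarins from roots, had 17.1, 29.4 and 0.146 in gcn5 and 113, 134 and 96.3 in the double mutant, a change of -3.74 ± 0.86 (adjusted p = 0.00183; change -1.85 corrected, -0.22 covariate not called, -4.65 without gcn5 replicate 2, -2.28 without gcn5 replicate 3), or -4.50 with 0.1 added in place of 1. FER1, an iron store, and OPT3, an iron transporter of the phloem, did not pass (adjusted p = 1 and 0.354).

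Among heat shock genes 3 of 12 tested were higher in gcn5 and 3 lower (1 and 4 corrected, 0 and 2 covariate, 1 and 2 without gcn5 replicate 3, 0 and 2 in all 4 fits). Over all genes tested 24.4% were higher and 22.6% lower, and the heat shock, clock and senescence counts did not lie far from those shares. HSP90.1, a heat-induced chaperone, had 296, 201 and 147 in gcn5 and 979, 1732 and 1067 in the double mutant, a change of -2.56 ± 0.33 (adjusted p = 1.36e-05), called in all 4 fits. Of 13 clock genes 2 were higher and 3 lower (3 and 2 corrected, 2 and 1 covariate, 1 and 1 without gcn5 replicate 3, 0 and 1 in all 4 fits). RVE1, a clock-linked transcription factor, had 37.5, 27.4 and 66.7 in gcn5 and 126, 112 and 89.5 in the double mutant, a change of -1.38 ± 0.34 (adjusted p = 0.00303). The evening element AAAATATCT, searched on both strands in the 300 bases before each gene, stood in 58 of 1082 promoters of genes higher in gcn5 in all 4 fits (5.36%), in 2 of 284 of those lower (0.704%) and in 2.87% of all promoters. Of 14 senescence genes 4 were higher and 3 lower (2 and 3 corrected, 2 and 1 covariate, 2 and 1 without gcn5 replicate 3, 0 and 1 in all 4 fits). SAG12, a protease of ageing leaves, had 66.6, 87.1 and 93.9 in gcn5 and 14.2, 9.72 and 8.43 in the double mutant, a change of 2.84 ± 0.56 (adjusted p = 0.000519; change 2.22 corrected, 2.49 covariate not called), and the sugar transporter SWEET15 had 13.9, 3.88 and 11.8 in gcn5 and 44.7, 59.6 and 63.3 in the double mutant, a change of -2.53 ± 0.41 (adjusted p = 0.000112; change -3.26 covariate). Of 9 light signalling genes 4 were higher and 1 lower (3 and 2 corrected, 2 and 1 covariate, 3 and 1 without gcn5 replicate 3, 2 and 1 in all 4 fits). PIF4 and PIF3, light-regulated transcription factors of 1 family, were called in opposite directions in all 4 fits. PIF4 had 3415, 3566 and 2317 in gcn5 and 1477, 1569 and 1529.8 in the double mutant (adjusted p = 0.000422), and PIF3 had 324, 326 and 183 in gcn5 and 894, 814 and 883 in the double mutant (adjusted p = 2.62e-05). PIF4 changed by 0.997 ± 0.19 (change 1.75 covariate) and PIF3 by -1.68 ± 0.23 (change -0.80 corrected, -1.07 covariate).

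Among growth lists, 1 of 10 genes of the shoot meristem and its boundary was higher in gcn5 and 0 lower (2 and 0 corrected, 1 and 0 covariate, 1 and 0 without gcn5 replicate 3, 0 and 0 in all 4 fits). Of 13 leaf growth factors 3 were higher and 1 lower (3 and 3 corrected, 0 and 1 covariate, 1 and 1 without gcn5 replicate 3, 0 and 0 in all 4 fits). Of 16 genes of the mitotic cell cycle 4 were higher and 3 lower (4 and 3 corrected, 0 and 0 covariate, 3 and 1 without gcn5 replicate 3, 0 and 0 in all 4 fits). None of the genes in these 3 lists was called in all 4 fits, where 4.65% of all genes tested were higher and 1.22% lower. In the uncorrected fit the shares of all genes were 24.4% and 22.6%, and the counts of these lists lay near or below them.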
